A study of Mus musculus with 14 samples.

Results

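The MAX network is a family of basic helix-loop-helix leucine zipper transcription factors built around MAX. MYC proteins bind DNA and activate genes only as heterodimers with MAX, and the MXD proteins, MXI1 and MNT compete with MYC for MAX and recruit SIN3 and histone deacetylase corepressors to the same E-box sites. MGA also pairs with MAX and belongs to the Polycomb complex PRC1.6, which is known in embryonic stem cells for keeping germline genes silent. MLX forms a parallel arm that pairs with MLXIP (MondoA), a glucose-responsive activator, and with some MXD proteins and MNT. The 9 genes described here, Max, Mxd1, Mxi1, Mxd3, Mxd4, Mnt, Mga, Mlx and Mlxip, were chosen by symbol as the MAX partners and MYC antagonists among 36335 named genes. All 9 had enough counts to be tested for total RNA and for labelled RNA, within 14641 and 12678 tested genes.

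The cells were mouse E14 embryonic stem cells, either WT or Mettl3-KO, where Mettl3 encodes the catalytic subunit of the m6A methyltransferase of mRNA. All groups shared the same treatment: paused growth for 2 weeks in serum and LIF with 200 nM INK128, an mTOR kinase inhibitor, then 12 h of 100 µM S4U (4-thiouridine), with the medium renewed every 3 h, and a chase without S4U. Cells were harvested at 0, 1, 3 or 8 h of chase, giving 6 WT libraries (1, 2, 1 and 2 at these times) and 8 Mettl3-KO libraries (2 at each time) of mRNA 3′ ends. Iodoacetamide (10 mM) makes the incorporated S4U read as C, so T>C conversions mark RNA made during the pulse. The cell line label is E14 for all libraries, but the source names of the 2 Mettl3-KO libraries at 8 h read E15 and E16; they were treated as E14. The labels do not say how many clones the knockout came from or whether replicates were separate cultures, and a p-value here therefore reflects the spread among these libraries alone, which may be technical.

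The 12 deep libraries held 6108102 to 26654217 counts. The 2 shallow ones were the second WT library at 1 h (49154 counts) and the second Mettl3-KO library at 3 h (602297), and their labelled shares (8.43% and 6.90%) stood apart from those of their partner libraries (30.8% and 18.5%). Mettl3 itself was at 23.0 to 74.9 CPM (counts scaled to the library's TMM-adjusted depth) in deep WT libraries and 1.21 to 2.41 in deep Mettl3-KO libraries, a log2 difference of -4.63 (SE 0.29, edgeR adjusted p = 3.89e-07). Y-linked Eif2s3y lay at 0.131 to 0.957 CPM in deep WT and 40.7 to 70.2 CPM in deep Mettl3-KO libraries, so the loss of Mettl3 and other differences between the cell lines cannot be told apart in any comparison here. Markers of embryonic stem cells were present in both genotypes, with a summed level of 3253 to 4452 CPM in deep WT and 2831 to 4042 CPM in deep Mettl3-KO libraries, and 1 of 6 passed the test (Esrrb, lower). The 5 primitive endoderm markers summed to 18.9 to 26.0 CPM in WT and 2.86 to 9.25 in Mettl3-KO, the 4 neural markers to 69.8 to 95.0 and 452 to 737, and the 4 fibroblast markers to 9.45 to 16.3 and 3.44 to 7.84. Single markers went against these sums: of the neural markers Tubb3 and Stmn2 were higher, while Sox1 was lower (49.5 ± 11.1 CPM, SD, n = 5, in deep WT and 7.65 ± 3.16, SD, n = 7, in deep Mettl3-KO libraries, a log2 difference of -2.56), and of the endoderm markers 3 were lower and Foxa2 was higher (1.86, SE 0.57). The defining endoderm gene Sox17 and the fibroblast genes Col1a2 and Pdgfra were at 0 in some deep libraries. The part of these shifts in the results below was not tested. In bulk RNA, fewer cells that express a gene and less RNA per cell cannot be told apart.

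The E-box CACGTG, the palindromic site bound by MAX dimers, lies in the promoter window of 4 of the 9 genes, and these stretches are printed because the proteins that the genes encode bind that same sequence. The windows are RefSeq's on GRCm38.p6 (the assembly of mm10) and run from 250 bases before to 50 bases after an annotated start. All 9 genes matched, with 11 windows in all, because Mxi1 has 3. The stretches read 5′ to 3′ on the gene's strand, with the E-box in capitals. The motif was searched as its 6 letters, which read the same on both strands.
Max (chr12:76962234-76962263, minus strand): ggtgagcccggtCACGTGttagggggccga
Mxd4 (chr5:34187912-34187941, minus strand): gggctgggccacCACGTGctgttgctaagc
Mnt (chr11:74830789-74830818, plus strand): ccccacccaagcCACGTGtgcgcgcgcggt
Mlx (chr11:101087238-101087267, plus strand): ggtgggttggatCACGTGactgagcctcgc

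The first base of the E-box lay 3 bases before the annotated start in Max, 40 before it in Mlx, 123 in Mnt and 219 in Mxd4. That start is the one each window was built on. RefSeq's outer gene bounds, given with each gene below, reach further upstream in Max and Mlx, whose E-boxes lie inside them, and in Mnt, whose E-box ends on the first base of the gene. The windows of Mxd1, Mxd3, Mxi1, Mga and Mlxip did not hold these letters. Among all 27025 genes listed, 8.09% had the motif in a window, as did 11.1% of the 12314 genes with a window of at least 55.0% GC, the lowest GC among these 9 genes. A match in the window is a description of the sequence and does not show binding. Of the 4 genes with an E-box, Mnt was lower in Mettl3-KO and Max, Mlx and Mxd4 did not pass the test described next.

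Total RNA was compared between the genotypes to ask whether the level of each network member differs without Mettl3. Mnt and Mxd1, both MYC antagonists, were lower in Mettl3-KO, by 1.29 (SE 0.29) and 1.19 (SE 0.34) on the log2 scale. No member passed as higher by edgeR with all 14 libraries, TMM and library totals over the tested genes. In that fit Mlxip, the glucose-responsive activator, lay just outside the threshold at 0.78 (SE 0.27, edgeR adjusted p = 0.0508). Mlxip passed by DESeq2, which called 2459 of 14641 genes higher and 2358 lower. It also passed by edgeR with library totals over all genes, which called 1859 higher and 1388 lower. Max, the obligate partner, stood at -0.02 (SE 0.26). With library totals over the tested genes, edgeR called 12.1% of all 14641 genes higher and 9.99% lower. A count of 2 lower and 0 higher among 9 members is not read as a property of the group against that background. The median log2 difference was -0.04 over the members and 0.05 over all tested genes.

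**Figure D1:**
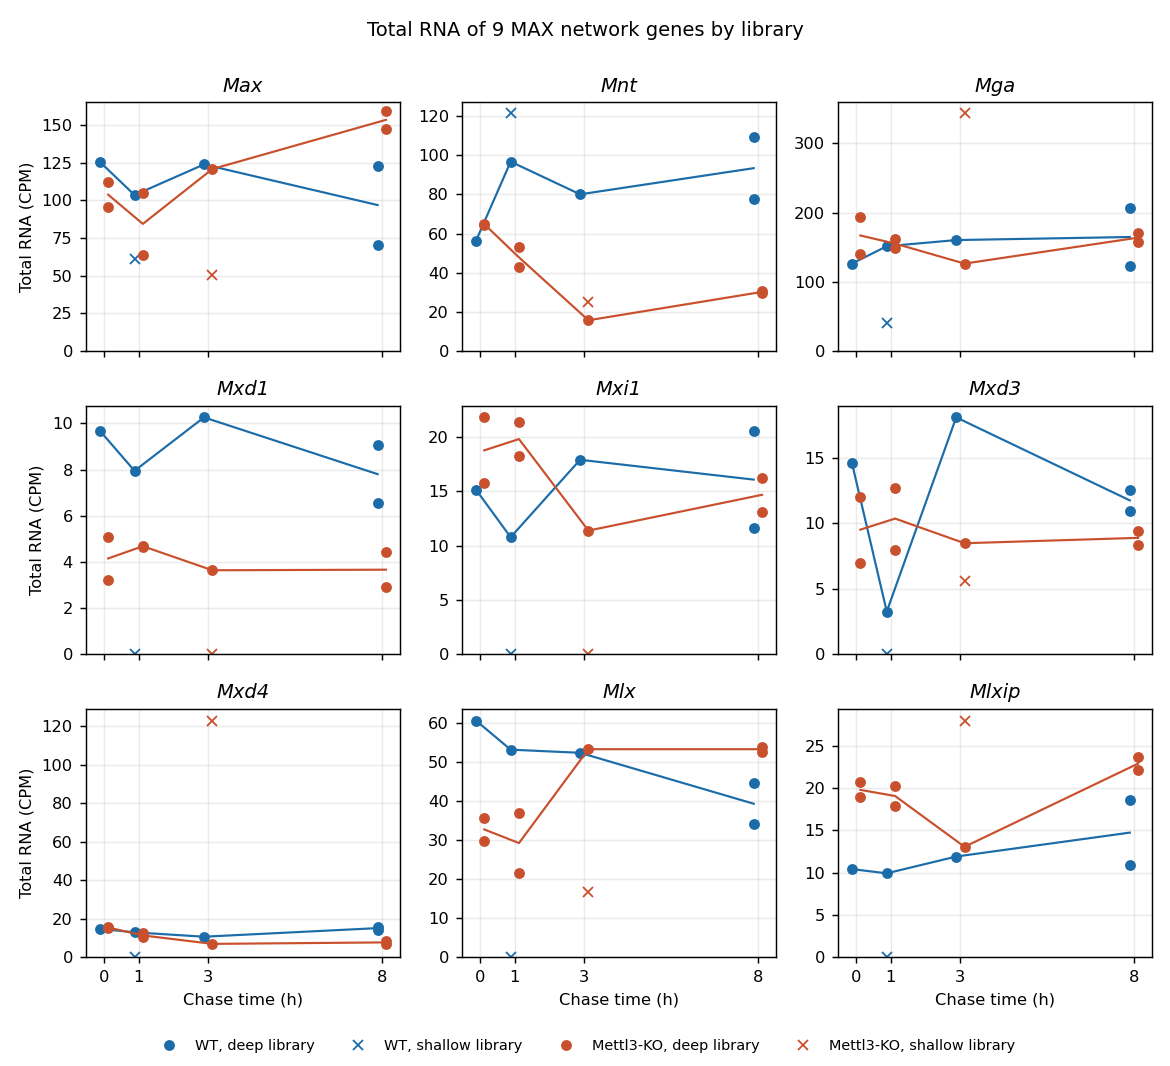
Total RNA of the 9 genes in each library (y axis, CPM on a linear scale from 0) against chase time (x axis, hours). Points are deep libraries, crosses are the 2 shallow ones, and lines join the means of the deep libraries; the deep WT points of Mxd1 (6.55 to 10.3 CPM) all lie above its Mettl3-KO points (2.91 to 5.08 CPM).

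Max (chromosome 12, 76937269 to 76962323) is the partner that every MYC dimer needs. Its WT libraries held 60.9 to 125 CPM with a median of 113, and its Mettl3-KO libraries 50.3 to 159 with a median of 108. The genotype ranges over all chase times overlap, and the lowest value of each genotype was its shallow library, at 3 and 18 counts. In the deep libraries Mettl3-KO at 8 h stood highest, at 147 and 159 CPM against 123 and 70.7 in WT, while at 0 h the order was turned, with 95.5 and 111.9 against 125.

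Mnt (chromosome 11, 74830806 to 74845725) encodes a broadly expressed MAX partner that represses MYC target genes. In WT it was at 56.2 CPM at 0 h, 96.8 and 121.8 at 1 h, 80.1 at 3 h, and 77.7 and 109.2 at 8 h. In Mettl3-KO it was at 65.2 and 64.6 CPM at 0 h, 42.8 and 53.0 at 1 h, 15.8 and 25.2 at 3 h, and 29.8 and 30.7 at 8 h. The values of 121.8 and 25.2 come from the shallow libraries, from 6 and 9 counts. Both knockout libraries at 0 h lay above the WT library of that time. All knockout libraries at 1, 3 and 8 h lay below all WT libraries of those times, so the genotype ranges overlap only through 0 h. How many of all tested genes separate at those 3 times was not counted, so this order is not read as particular to Mnt. The means were 84.0 ± 20.1 CPM (SD, n = 5) in deep WT and 43.1 ± 18.8 (SD, n = 7) in deep Mettl3-KO libraries. The difference averaged over chase times had an edgeR adjusted p of 0.0060, and of 0.0027 without the shallow libraries (-1.25, SE 0.28). It passed in each of the 14 fits that left out 1 library, between -1.61 and -1.06.

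Whether the total RNA of Mnt changed over the chase differently in the knockout was tested by the interaction of genotype with hours. The difference in slope was -0.15 log2 per hour (SE 0.09, edgeR adjusted p = 1.0, unadjusted p = 0.110). Without the shallow libraries it was -0.17 (SE 0.07, edgeR adjusted p = 0.246, unadjusted p = 0.0299). So the turn from knockout values above WT at 0 h to values below it later did not pass across all genes.

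Mxd1 (chromosome 6, 86647044 to 86669234), the founding MXD gene, is known for rising as cells leave the cycle and differentiate. Its counts were low, 43 to 182 in deep WT and 33 to 117 in deep Mettl3-KO libraries. In deep WT libraries it was at 9.68 CPM at 0 h, 7.95 at 1 h, 10.3 at 3 h, and 9.06 and 6.55 at 8 h. In deep Mettl3-KO libraries it was at 5.08 and 3.22 CPM at 0 h, 4.70 and 4.67 at 1 h, 3.64 at 3 h, and 2.91 and 4.42 at 8 h. Every deep WT library lay above every deep knockout library, a separation that 10.2% of the 14641 tested genes show in this direction. Both shallow libraries had 0 counts of Mxd1, which at 3 counts allows up to 60.9 CPM in the WT one and 8.39 CPM in the knockout one. The edgeR adjusted p was 0.0228 with all 14 libraries and 0.0024 with the deep ones (-1.14, SE 0.27). The call was lost when WT 0 h replicate 1, WT 1 h replicate 1, WT 3 h replicate 1, WT 8 h replicate 1 or Mettl3-KO 8 h replicate 1 was left out, at values of -1.24 to -1.02 and edgeR adjusted p of 0.0530 to 0.0871. It was also lost with no count filter (edgeR adjusted p = 0.0994) and with the replicate number as a block (-1.11, edgeR adjusted p = 0.0501).

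The other MXD genes did not pass. Mxi1 (chromosome 19, 53310128 to 53373293), an antagonist named for its interaction with MAX, was at 10.8 to 20.6 CPM in deep WT and 11.4 to 21.8 in deep Mettl3-KO libraries, a log2 difference of -0.04 (SE 0.41). Mxd3 (chromosome 13, 55325170 to 55329900), an MXD member known for expression in proliferating cells, was at 3.26 to 18.1 CPM and 6.99 to 12.7, a difference of -0.28 (SE 0.38). Its lowest value, 3.26 CPM in WT 1 h replicate 1, rests on 23 counts. The last 103 bases of Mxd3 overlap those of Prelid1 on the opposite strand, and Prelid1 had 19569 counts over all libraries against 2078 for Mxd3. Whether counting used the strand is not given in the sources used here, so the values of Mxd3 are uncertain; Prelid1 stood at 0.16 (SE 0.23) and did not pass.

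Mxd4 (chromosome 5, 34176580 to 34187710), another MXD repressor, gave a value that a single library set. It was at 10.8 to 16.0 CPM in deep WT libraries. In deep Mettl3-KO libraries it was at 15.6 and 15.6 CPM at 0 h, 10.4 and 12.5 at 1 h, 7.07 at 3 h, and 7.05 and 8.62 at 8 h. Mettl3-KO 3 h replicate 2, shallow, held 44 counts (123 CPM), far above all others. The log2 difference was 0.05 (SE 0.63) with all libraries, -0.49 (SE 0.24) without that one, and -0.50 (SE 0.23, edgeR adjusted p = 0.0866) without both shallow ones, so its direction turned and none of these passed.

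Mga (chromosome 2, 119872503 to 119970129), the PRC1.6 scaffold, showed no detectable difference. Deep WT libraries held 123.0 to 206.5 CPM (153.5 ± 33.6, SD, n = 5) and deep Mettl3-KO libraries 126.4 to 193.6 (156.9 ± 21.7, SD, n = 7). The log2 difference was 0.28 (SE 0.28) with all libraries and 0.02 (SE 0.17) without the shallow ones, of which Mettl3-KO 3 h replicate 2 held the highest value of all (344 CPM, 123 counts). The groups overlap almost fully.

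The MLX arm gave 2 different pictures. Mlx (chromosome 11, 101086707 to 101092207), the partner of MLXIP, was at 60.5 CPM at 0 h, 53.1 at 1 h, 52.3 at 3 h, and 44.6 and 34.0 at 8 h in deep WT libraries. In deep Mettl3-KO libraries it was at 29.7 and 35.7 CPM at 0 h, 36.8 and 21.6 at 1 h, 53.2 at 3 h, and 53.8 and 52.5 at 8 h. So the knockout values lay below WT at 0 and 1 h, close to it at 3 h and above it at 8 h, and the difference averaged over times was -0.32 (SE 0.34), not past the threshold. The slope differed by 0.14 log2 per hour (SE 0.11, edgeR adjusted p = 1.0), and by 0.17 (SE 0.05, unadjusted p = 0.0033, edgeR adjusted p = 0.110) in the 12 deep libraries. The last 67 bases of Mlx overlap those of Psmc3ip on the opposite strand (6522 counts against 8621), so its values are uncertain in the same way as those of Mxd3. Psmc3ip stood at 1.06 (SE 0.38, edgeR adjusted p = 0.0636).

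Mlxip (chromosome 5, 123394521 to 123457932) was the member with the largest positive difference. In deep WT libraries it was at 10.4 CPM at 0 h, 9.93 at 1 h, 11.9 at 3 h, and 10.9 and 18.6 at 8 h. In deep Mettl3-KO libraries it was at 18.9 and 20.7 CPM at 0 h, 17.9 and 20.2 at 1 h, 13.1 at 3 h, and 22.1 and 23.7 at 8 h. At each chase time the knockout libraries lay above the WT libraries, but the ranges overlap across times. How many of all tested genes show such an order at each time was not counted. Without the shallow libraries edgeR called 21.9% of genes higher and 19.3% lower, and Mlxip passed as higher (0.67, SE 0.21, edgeR adjusted p = 0.0183) beside Mnt and Mxd1 as lower. DESeq2 on all 14 libraries also called it (0.71, SE 0.25, DESeq2 adjusted p = 0.0175), as did edgeR with library totals over all genes (0.81, SE 0.27, edgeR adjusted p = 0.0414). The edgeR call was reached as well when either shallow library, Mettl3-KO 3 h replicate 1 or WT 8 h replicate 2 was left out, at edgeR adjusted p of 0.0245 to 0.0397. In the other 10 of the 14 fits that left out 1 library it was not reached. Mlxip also did not pass with no count filter (0.83, SE 0.30, edgeR adjusted p = 0.110). With the replicate number as a block it did not pass either (0.67, SE 0.26, edgeR adjusted p = 0.0859).

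**Figure D2:**
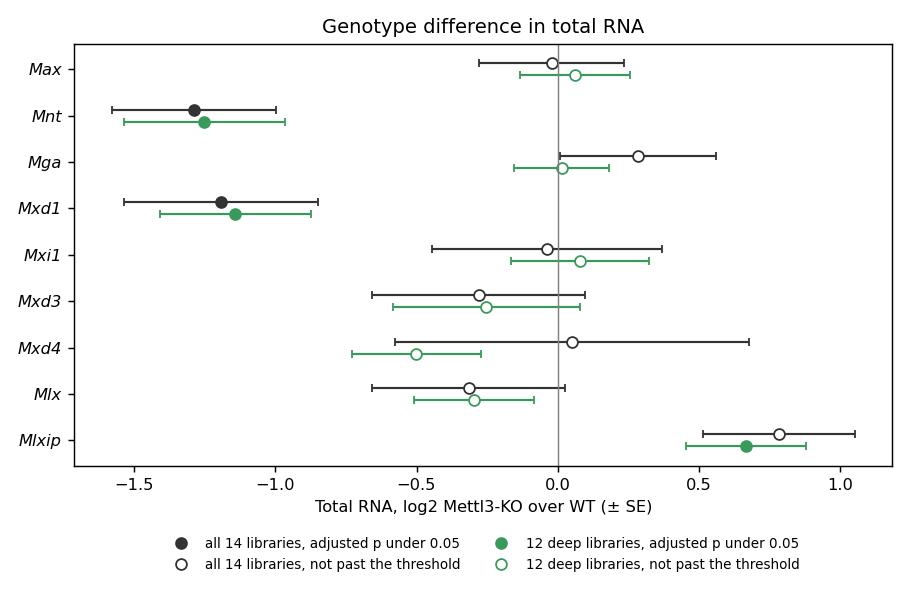
Log2 difference in total RNA, Mettl3-KO over WT (x axis), for each gene (y axis), with bars of 1 SE. Black is the fit on 14 libraries, green the fit on the 12 deep ones, and filled points passed an adjusted p of 0.05; Mnt and Mxd1 are filled in both, Mlxip only in the 12-library fit, and Mxd4 moves from 0.05 to -0.50.

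Across all members, the change of total RNA per hour did not differ between genotypes past the threshold. edgeR called 0 of 14641 genes (percent called 0.0), with 728 at an unadjusted p under 0.05, and 0 of the 9 members, all of which had an unadjusted p above that level. DESeq2 called 85 genes with a rise and 116 with a fall relative to WT, and none of the 9. In the deep libraries edgeR called 0.549% of genes and again no member, while Max (0.12, SE 0.05), Mlx, Mnt and Mxd4 (-0.13, SE 0.06) had an unadjusted p under 0.05. In that fit 2389 of 14579 genes reached the same unadjusted level. Max and Mlx stood on the rising side and Mnt and Mxd4 on the falling side. As a description over the 12 deep libraries, which share depth and genotype differences, log2(CPM + 1) of Max and Mlx had a Pearson correlation of 0.82, that of Mnt and Mxd4 0.84, and that of Mxd1 and Mlxip -0.78. These were the strongest correlations among all pairs of the 9 members, and the other pairs were weaker. They come from the same libraries as the slopes.

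Labelled RNA at 0 h, which reflects what was made and kept during the pulse, was compared next. No member passed: edgeR called 1.35% of 12678 genes higher and 6.27% lower, and 0 of 9 members either way, with 2 members at an unadjusted p under 0.05. Of all 12678 genes, 2553 reached that unadjusted level. Conversion counts per 100 total counts, the labelled share, were higher in the single WT library than in both knockout libraries for all 9 members. The same held for the whole libraries, at 39.4% in WT against 26.1% and 26.6%, so this order is not read as particular to the members. The share of all tested genes with this order was not counted. The fitted log2 difference in labelled RNA, scaled to total RNA, had a median of -0.54 over the members and -0.35 over all tested genes.

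The fitted values at 0 h are the starting points of a straight line through all chase times, so libraries of later times move them. Conversions per TMM-scaled library in the 0 h libraries themselves, with 1 WT library and no test, gave a log2 difference of -1.81 for Mxd3, -1.76 for Mxd1 and -1.51 for Mlx, against fitted values of -0.75, -1.93 and -1.36. These 3 were lowest of the 9 by the 0 h libraries. Mxd3 had 124 conversions in WT against 17 and 45 in Mettl3-KO, shares of 45.3%, 14.5% and 22.7%. Mlx had 610 conversions in 1137 counts in WT (53.6%, 95% Clopper-Pearson interval 50.7 to 56.6), and 40.6% (36.3 to 45.1) and 30.2% (26.5 to 34.0) in Mettl3-KO. Its fitted difference was -1.36 (SE 0.54, edgeR adjusted p = 0.105), and -0.51 (SE 0.44) when fitted against its own total count. Mxd1 had a labelled share of 57.7% (50.2 to 65.0) in WT, and of 47.1% (36.1 to 58.2) and 28.3% (16.8 to 42.3) in Mettl3-KO. The difference was -1.93 (SE 0.81, edgeR adjusted p = 0.136), and -0.79 (SE 0.66) when fitted in that way. Both genes also had lower total RNA in the knockout libraries at 0 h. Intervals here and below cover counting error only, since conversions can share a read or a PCR copy.

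Mxd3 had an SE of 0.75 on its fitted value, and the highest fitted value was that of Mlxip, 0.87 (SE 0.66), against 0.47 in the 0 h libraries. For Mxd4 the fit gave 0.03 and the 0 h libraries -0.67 (91 conversions against 58 and 43), and for Mxi1 0.22 and -0.14, so their direction depends on which is read. Max, at 50.6% in WT and 31.3% and 38.3% in Mettl3-KO, stood at -0.54 (SE 0.50). Mnt, at 35.7% against 23.9% and 25.1%, stood at -0.65 (SE 0.52). Mga, at 45.7% against 31.3% and 34.1%, stood at -0.21 (SE 0.50), and a scaling by TMM factors computed on the conversions turned it to 0.23. That scaling takes out differences across whole libraries: it moved the median of all genes from -0.35 to 0.06 and the called genes to 385 higher and 491 lower, against 171 and 795. Under that scaling Mlx stood at -0.95 (SE 0.45) and Mxd1 at -1.52 (SE 0.80), still without a call.

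**Figure D3:**
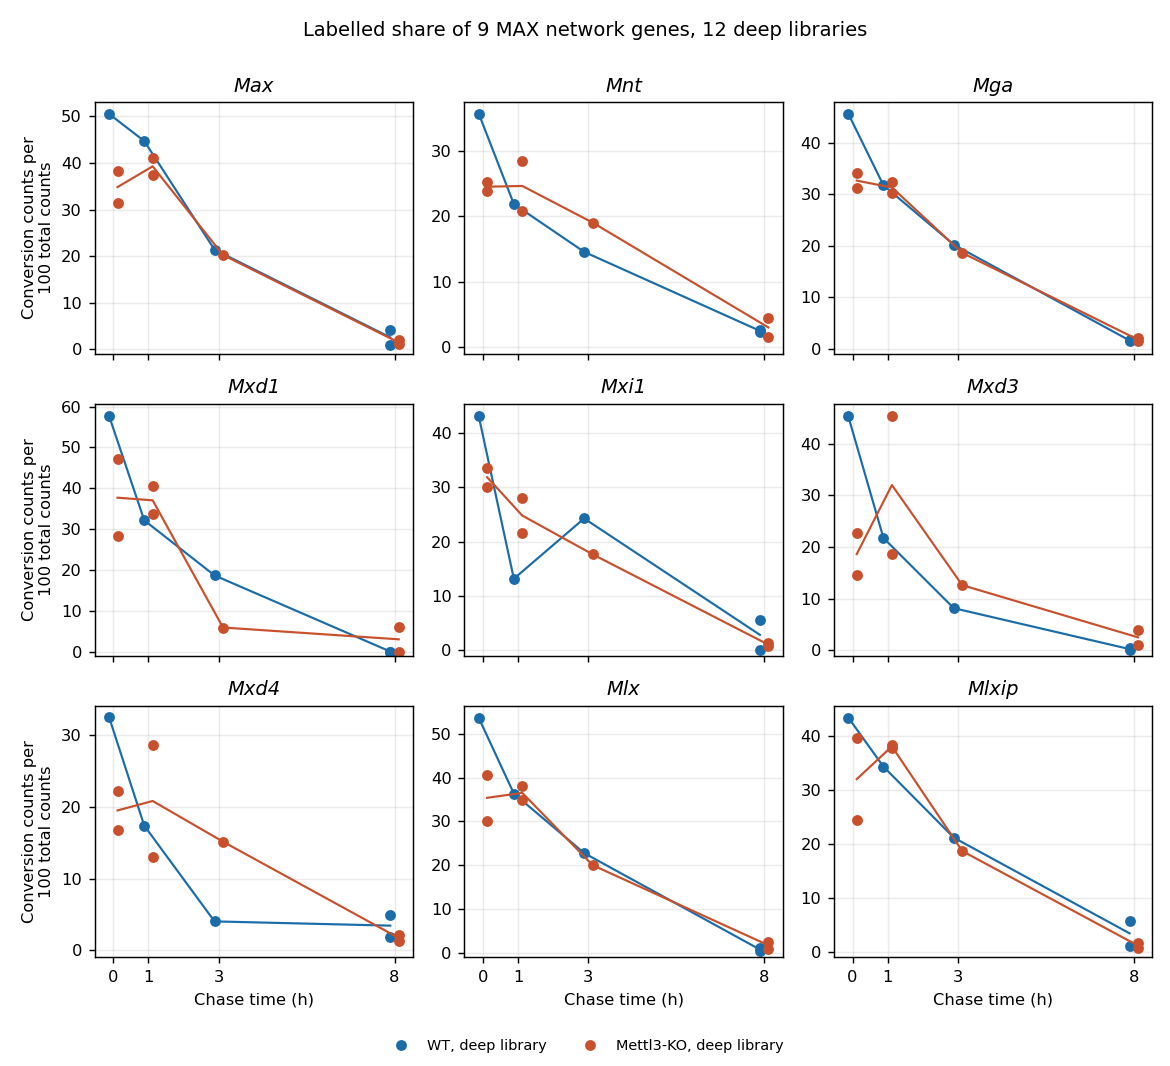
Labelled share (y axis, conversion counts per 100 total counts) of the 9 genes in the 12 deep libraries against chase time (x axis, hours), with lines through the means. In every panel the WT library at 0 h lies above both Mettl3-KO libraries, as it does in the labelled share of the whole libraries. By 8 h all shares are at or below 5.98%.

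During the chase all 9 members lost label in both genotypes, as did 91.4% of genes in WT and 88.2% in Mettl3-KO. A half-life below is the time for the fitted label, scaled to total RNA, to drop by 50%. Dilution by cell division was not corrected. The median slope of all tested genes corresponds to 1.80 h (WT) and 2.12 h (Mettl3-KO). At 8 h the labelled share of the members was 0% to 5.74% in WT and 0% to 5.98% in Mettl3-KO deep libraries. Max and Mga had nearly equal half-lives, 1.85 and 1.89 h for Max and 1.74 and 1.81 h for Mga in WT and Mettl3-KO.

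In WT the order from fastest to slowest loss was Mxd1 (1.09 h), Mlx (1.28 h), Mxd3 (1.28 h), Mga, Max, Mxi1 (2.22 h), Mnt (2.42 h), Mlxip (2.58 h) and Mxd4 (2.86 h). Neighbours in that order differed in slope by less than the sum of their standard errors. In Mettl3-KO the order was Mxi1 (1.46 h), Mlxip (1.63 h), Mga, Mxd4 (1.83 h), Mnt (1.85 h), Max, Mxd1 (2.20 h), Mlx (2.22 h) and Mxd3 (2.41 h). By point estimates the 3 members at the fast end in WT were at the slow end in Mettl3-KO, and Mxd4, Mlxip, Mnt and Mxi1 moved the other way. The order in Mettl3-KO is loose as well. Mlx (-0.45, SE 0.09), Mxd1 (-0.45, SE 0.13) and Mxd3 (-0.42, SE 0.13) lay within 1 SE of the Mettl3-KO median slope of all tested genes (-0.47). No member passed the edgeR test of the difference between genotypes given next.

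The difference in loss rate between genotypes was tested for each gene. edgeR called 2.4% of 12678 genes slower in Mettl3-KO and 0.205% faster, and 0 of the 9 members in either direction. The median difference was 0.01 log2 per hour over the members and 0.10 over all tested genes, where a value above 0 is slower loss in Mettl3-KO. Of the members 5 lay above 0 and 4 below. One member, Mlx, had an unadjusted p under 0.05, as did 2369 of all 12678 tested genes.

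Mlx lost label at -0.78 log2 per hour (SE 0.11) in WT and -0.45 (SE 0.09) in Mettl3-KO. Its labelled share in deep libraries went from 53.6% at 0 h through 36.4% at 1 h and 22.8% at 3 h to 1.18% and 0.448% at 8 h in WT. In Mettl3-KO it went from 40.6% and 30.2% through 35.0% and 38.1% and then 20.0% to 0.982% and 2.59%. The shares of the genotypes were close at 1 and 3 h and overlapped at 8 h. The difference in slope was 0.33 (SE 0.13, unadjusted p = 0.0151, edgeR adjusted p = 0.150). limma on the authors' deposited log values (base 2, from their slope on the conversion counts), where 8.47% of genes were slower and 0.11% faster, gave 0.40 (SE 0.12) and passed for Mlx alone among the members (limma adjusted p = 0.0459). Fitted against its own total count, which takes out the change of its total RNA over the chase, the difference was 0.16 (SE 0.11, edgeR adjusted p = 0.451).

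Mxd1 had the steepest loss in WT, -0.91 (SE 0.19), against -0.45 (SE 0.13) in Mettl3-KO, a difference of 0.46 (SE 0.24, edgeR adjusted p = 0.283). The steep WT slope rests on 8 h libraries with 0 conversions in 138 counts and 0 in 43, which allow labelled shares of up to 2.17% and 6.98%. In Mettl3-KO at 8 h there were 0 in 33 and 7 in 117 counts (5.98%, 2.44 to 11.9). Leaving out single libraries moved the difference between -0.06 and 0.71. Mxd3, also sparse, had slopes of -0.78 (SE 0.16) and -0.42 (SE 0.13), a difference of 0.36 (SE 0.21, edgeR adjusted p = 0.340).

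Of the members with a value below 0, Mxi1 stood at -0.23 (SE 0.17), Mlxip at -0.22 (SE 0.16), Mxd4 at -0.20 (SE 0.17) and Mnt at -0.13 (SE 0.12). None passed, with edgeR adjusted p between 0.473 and 0.605. The labelled share of Mnt in deep libraries was 35.7%, 21.8%, 14.5%, and 2.62% and 2.37% over the chase in WT. In Mettl3-KO it was 23.9% and 25.1% at 0 h, 20.8% and 28.4% at 1 h, 19.0% at 3 h, and 4.44% and 1.6% at 8 h. Its share at 3 h, where its total RNA was lowest, was above that of WT, and against its own total count the difference turned to 0.05 (SE 0.10). Max and Mga were at 0.01 (SE 0.12) and 0.02 (SE 0.11), and Max turned to -0.09 in that fit and both turned below 0 (-0.08 and -0.07) with TMM on conversions, a scaling that moved the median of all genes to 0.01.

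**Figure D4:**
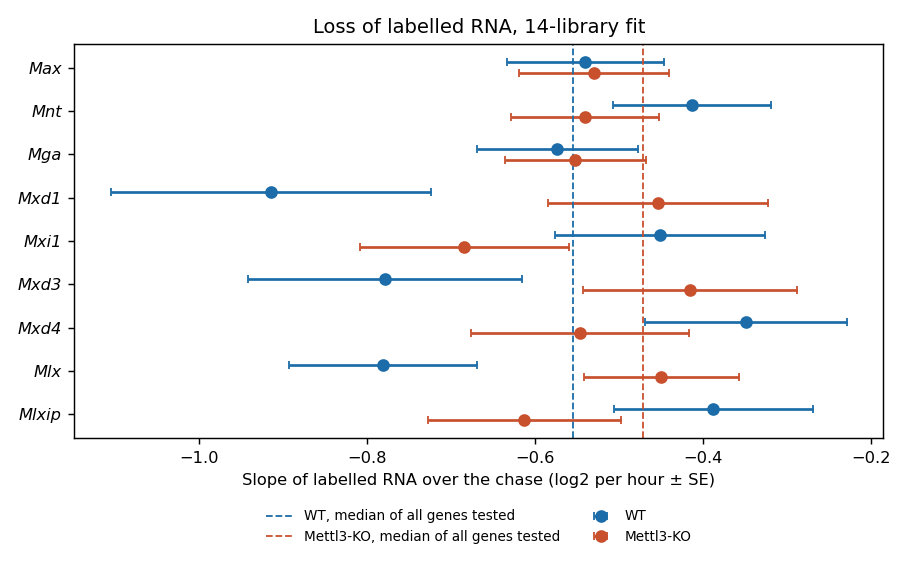
Fitted slope of labelled RNA over the chase (x axis, log2 per hour, bars of 1 SE) for each gene (y axis) in WT (blue) and Mettl3-KO (orange), with dashed lines at the median of all tested genes. Mlx, Mxd1 and Mxd3 lie left of the WT median in WT. In Mettl3-KO they lie right of the Mettl3-KO median by less than 1 SE, while Max and Mga hardly differ between genotypes.

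The authors' deposited table of half-lives, whose header gives no unit, lists 5 of the 9 members among 6985 genes, with medians of 1.69 in WT and 2.52 in Mettl3-KO and a longer value in Mettl3-KO for 83.4% of genes. In the authors' deposited table Mlx had 1.25 in WT and 3.15 in Mettl3-KO, and Max had 1.58 and 2.67. Mnt had 2.63 and 2.50, Mlxip 2.48 and 2.41, and Mxi1 1.72 and 1.5 in the authors' deposited table, so these 3 were among the genes with no longer value in Mettl3-KO. The slopes from the counts placed Mlx, Mnt, Mlxip and Mxi1 in the same directions, and Max at a difference near 0. Both come from the same libraries, so the shared directions are not independent. By limma on the authors' log values the difference was -0.02 (SE 0.17) for Mxi1, -0.04 (SE 0.15) for Mlxip and -0.07 (SE 0.14) for Mnt. For Max it was 0.13 (SE 0.16) and for Mlx 0.40 (SE 0.12).

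Genes that work with the network were grouped in lists, each to be read beside the 12.1% higher and 9.99% lower of all tested genes. Among the MYC genes and Mlxipl, 2 of 5 were higher and 0 lower in total RNA (median 0.14). Mycn, a MYC gene of embryonic and progenitor cells, rose by 1.98 (SE 0.26), and Mlxipl (ChREBP), the other glucose-responsive MLX partner, rose by 2.53 (SE 0.38), with means of 0.926 CPM (SD 0.257, n = 5) in deep WT and 5.70 CPM (SD 1.19, n = 7) in deep Mettl3-KO libraries. Myc stood at -0.58 (SE 0.51) and Mycl at 0.14 (SE 0.39). Bmyc, which lacks the DNA-binding part of MYC, stood at -0.30 (SE 0.31) and lost label more slowly in Mettl3-KO, by 0.72 log2 per hour (SE 0.14).

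The corepressor partners of the antagonists had 0 higher and 2 lower members in each list. Of 13 PRC1.6 genes, partners of MGA and MAX, Hdac1 (-1.44, SE 0.28) and Rnf2, an E3 ligase of histone H2A (-1.05, SE 0.23), were lower, with a list median of 0.10. Of 11 SIN3 and histone deacetylase genes Hdac1 and Sap30, a SIN3 subunit (-1.28, SE 0.38), were lower, with a list median of -0.31. Of 15 MYC cofactors and regulators of MYC protein 2 were higher, Usp28 (1.43, SE 0.33) and Zbtb17, which encodes MIZ1 (1.02, SE 0.27), and 2 lower, Ruvbl2 (-1.19, SE 0.31) and Pim1 (-0.86, SE 0.29), with a median of 0.04. Without the shallow libraries, where 21.9% of all genes were higher and 19.3% lower, these 3 lists had 2, 1 and 4 higher and 4, 4 and 3 lower genes.

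Genes described as targets moved in both directions. Of 16 germline genes described as repressed by PRC1.6, 14 were tested, 2 were higher (Tdrkh 1.62, SE 0.50; Stag3 0.74, SE 0.25) and 3 lower (Mael -2.19, SE 0.41; Taf7l -1.43, SE 0.45; Stk31 -1.30, SE 0.34), with a median of -0.34. Of 8 MLXIP and MLX targets Pfkfb3, a regulator of glycolysis (1.03, SE 0.30), and Ldha, lactate dehydrogenase (0.89, SE 0.25), were higher and none lower with all 14 libraries, with a median of 0.13. The hallmark targets Txnip (-0.05, SE 0.42) and Arrdc4 (0.84, SE 0.46) did not pass. Of 20 MYC and MAX targets Ccnd2 (3.23, SE 0.31), Mrto4 (1.67, SE 0.25) and Polr1b (0.88, SE 0.24) were higher and Tfrc (-0.90, SE 0.22) lower, with a median of 0.26. In the same order, these 3 target lists had 3, 3 and 6 higher and 4, 2 and 2 lower genes without the shallow libraries. In loss rate, Ldha (0.41, SE 0.11) was the 1 called gene among these target lists and the corepressor and cofactor lists. The target lists had 12, 8 and 20 genes tested for loss rate, and the corepressor and cofactor lists 13, 11 and 15. Over all tested genes 2.4% were slower and 0.205% faster in Mettl3-KO.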

How the data were processed

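SLAM-seq 3′ end libraries were read from tables the authors deposited: total counts and T>C conversion counts per gene (36335 named genes, and 1 entry with no name, left out, with 0.00707% to 0.0312% of a library). The authors also deposited log2 normalized values (17164 entries; the base is not in the header, but across genes with 100 or more conversions their slope on log2 conversion counts was 0.998 to 1.00 in the 12 deep libraries) and fitted half-lives with no unit in the header (other values, used as the authors' own). Per the submitters' processing notes, the tools were edgeR 3.32.1, featureCounts from Subread 1.5.0 and Trim Galore 0.4.0, with mm10 as the build. Not given in the sources used here are the aligner, the conversion caller, the use of strand, and what 1 conversion count stands for, a read or a base. The 2 count tables list genes in different orders and were joined by symbol. In 152 genes, no member among them, a library held more conversions than counts.

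Groups and replicate numbers came from the titles. Total counts were tested with edgeR 4.0.16 (R 4.3.3), quasi-likelihood F tests with TMM, keeping genes that reach 10 counts in 6 or more libraries, with chase time as a factor and genotype; hours, genotype and their interaction tested the change per hour. Conversion counts (reaching 10 in 3 or more libraries) used TMM-scaled totals of the same library as scale, in a straight line over hours for each genotype whose value at 0 h and slope were compared. All 14 libraries entered each fit, so the lone WT libraries at 0 and 3 h are assumed to vary like the rest. Benjamini-Hochberg adjusted p under 0.05 over all tested genes was the threshold. SE is the log2 effect over the square root of F. CPM uses TMM-scaled totals. Depth was 6108102 to 26654217 total counts in 12 libraries and 49154 and 602297 in the 2 shallow ones. Scripts were tested on simulated data. Alternatives were DESeq2 1.42.0, limma 3.58.1, no count filter, other scalings, a replicate block, and leaving out the shallow or single libraries; library totals over all genes were added after seeing the data. The members, lists and tests were chosen with earlier results of these data known. Named are all members, Mettl3, up to 4 called genes per list with the smallest p, and the 2 genes most correlated with each member (those of Max are not reported here); Eif2s3y, Prelid1, Psmc3ip, Myc, Mycl, Bmyc, Txnip, Arrdc4, Esrrb, Tubb3, Stmn2, Sox1, Foxa2 and the marker genes listed at 0 were named after their values were seen.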

Additional observations from a re-analysis of the deposited data

Results flagged for a closer look

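In groups of 6 WT and 8 Mettl3-KO libraries, 5 single values of total RNA lay farther from the other libraries of their genotype than Dixon's 95% limit, and all 5 came from the 2 shallow libraries. Chance sets apart about 1 in 20 groups, but the limit takes no account of depth. In the shallow libraries 3 counts stand for 60.9 CPM (WT) and 8.39 CPM (Mettl3-KO). The values of 0 CPM below are therefore within what depth allows. Mxd1 was at 0 CPM in WT 1 h replicate 2 and at 0 CPM in Mettl3-KO 3 h replicate 2. Mxd4 was at 0 CPM in WT 1 h replicate 2 and at 123 CPM in Mettl3-KO 3 h replicate 2, where 44 counts and 0 conversions were recorded. Mga was at 344 CPM in Mettl3-KO 3 h replicate 2, from 123 counts with 0 conversions.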

How the results depend on the processing

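Over 720 values of single members under the alternatives, 654 kept their direction and side of the threshold, 50 turned direction, 9 gained and 7 lost the call. Mnt kept its total RNA call under every alternative run, at -1.61 to -1.06. For total RNA, no count filter gave 1097 higher and 973 lower genes with 1 member lower. Without the shallow libraries there were 3189 higher and 2812 lower genes, 1 member higher, Max at 0.060, Mxd4 at -0.50 and Mxi1 at 0.080. Library totals over all genes gave 1859 higher and 1388 lower genes, 1 member higher and Max at 0.015. DESeq2 gave 2459 higher and 2358 lower genes and 1 member higher. For the change per hour, the deep libraries gave 35 genes rising and 45 falling relative to WT and DESeq2 85 and 116.

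For labelled RNA at 0 h, TMM on the conversion counts gave 385 higher and 491 lower genes and Mga at 0.23, and the gene's own total count as offset gave 0 and 1 genes (780 at an unadjusted p under 0.05 by edgeR), Mxd4 at -0.0033 and Mxi1 at -0.026. For the loss rate difference, slower and faster genes were 186 and 120 with TMM on the conversion counts (Max -0.078, Mga -0.065), 700 and 43 by DESeq2, and 1073 and 14 by limma on the authors' values, with 1 member slower. Without the shallow libraries 640 were slower. The own total count offset gave Max -0.091 and Mnt 0.052. The cause of these moves was not tested.

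Replicate numbers are only numbers here: same-numbered libraries had correlations of -0.08 to 0.30 between groups. With the replicate number as a block, 1 member was lower, since Mxd1 stood at -1.11 (edgeR adjusted p = 0.0501), 466 genes were lower at 0 h, and Max (0.13), Mxd4 (-0.28; at 0 h -0.053) and the loss difference of Max (-0.031) turned.

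Leaving out 1 library at a time gave 1206 to 2800 higher and 953 to 2481 lower genes in total RNA, with 0 to 1 members higher and 1 to 2 lower. Max ranged from -0.18 to 0.12, Mxd3 from -0.60 to 0.016, Mxd4 from -0.49 to 0.27 and Mxi1 from -0.18 to 0.30. For the change per hour there were 0 to 8 rising and 0 to 9 falling genes, with Mxd1 at -0.068 to 0.013, Mxd3 at -0.13 to 0.012, Mxd4 at -0.20 to 0.041 and Mlxip at -0.096 to 0.0031. At 0 h there were 77 to 211 higher and 312 to 989 lower genes and 0 to 1 members lower (Mlx without Mettl3-KO 3 h replicate 1, -1.57, edgeR adjusted p = 0.0439), with Mxd3 at -1.29 to 0.074, Mxd4 at -0.26 to 0.84, Mxi1 at -0.30 to 0.64 and Mga at -0.39 to 0.036. In the loss rate 60 to 514 genes were slower and 2 to 68 faster, with Max at -0.093 to 0.24, Mxd1 at -0.056 to 0.71 and Mga at -0.036 to 0.049. Low counts limit Mxd1, Mxd3, Mxd4, Mxi1 and Mlxip.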

Other observations

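For each member but Max the 2 genes with the highest Pearson correlation of log2(CPM + 1) over the 12 deep libraries, chosen among 14641 tested genes, are given as a description. Mlx was most like Tmem179b (0.935) and Utp11 (0.928). Mnt was most like Dhtkd1 (0.963) and 9930024M15Rik (0.959). Mxd1 was most like Foxq1 (0.955) and Abca1 (0.952), a cholesterol exporter. Mlxip was most like Cep131 (0.946) and Gm19426 (0.938), Mxd4 like Mturn (0.915) and Armcx1 (0.911), and Mxi1 like Ncoa4 (0.897) and Gm45838 (0.874). Mga was most like Gm11853 (0.882) and Cnksr1 (0.850), and Mxd3 like Zfta (0.827) and Esco1 (0.826). These libraries share genotype and depth differences, so a gene chosen as like a member can share its genotype difference through the choice itself.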
